A study of Mus musculus with 8 samples.

Results

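The myelin and mature oligodendrocyte genes are 35 gene symbols of the proteins, enzymes and regulators of the myelin sheath and of the cells that make it. They were matched by symbol to the deposited expression matrix, and 19 of the 35 were found among the 23116 genes analysed here. The other 16 (Mog, Cnp, Pllp, Tspan2, Plekhb1, Gjb1, Gjc3, Hapln2, Ugt8a, Aspa, Trf, Gsn, Sept4, Ppp1r14a, Plekhh1 and Cryab) were not analysed here. The tissue was the dLGN (dorsal lateral geniculate nucleus), the thalamic station that relays input from the retina to the visual cortex. The libraries form a group of 4 Fn14 KO mice and a group of 4 Fn14 WT mice, in which Fn14, the receptor for the cytokine TWEAK encoded by Tnfrsf12a, is absent or intact per the labels. Both groups are labelled C57BL/6J, aged 27 postnatal days and kept in standard housing without a light stimulus, and the series pools male and female littermates, without the sex of each mouse. Each mouse is 1 library, named KO 1 to KO 4 and WT 1 to WT 4 by the replicate number of its label. Neither the labels nor the design text say which exons the KO allele lacks.

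Oligodendrocytes wrap axons of the central nervous system in a compacted, lipid-rich membrane that speeds conduction. Their precursors divide, exit the cell cycle, pass through a short premyelinating state and then switch on myelin genes together, under transcription factors such as SOX10, OLIG2 and MYRF. The dLGN holds the myelinated axons of retinal ganglion cells and of relay neurons, and in mice its myelin is laid down after birth.

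Values are in TPM, in which reads are divided by transcript length and scaled to a common sum per library, so that levels can be compared between genes. For these genes WT 1 and WT 2 differed widely from the other 6 libraries, and the KO and WT groups are therefore compared with and without them. All libraries carry the same age label, the age and identity of none of them could be checked here, and every KO against WT value rests on these labels. The 19 genes together summed to 331, 313, 285 and 318 TPM in KO 1 to KO 4, against 17416, 21741, 317 and 277 TPM in WT 1 to WT 4. WT 1 and WT 2 were thus the only libraries in which these genes made up more than 1% of the total, with 1.74% and 2.17%, while the other 6 held between 0.0277% and 0.0331%. WT 3 and WT 4 lay within or just below the range of the KO libraries. The targeted gene Tnfrsf12a was at 2.95, 1.12, 1.32 and 1.86 TPM in KO 1 to KO 4, against 4.78, 5.48, 3.67 and 0.82 TPM in WT 1 to WT 4. WT 4 had the lowest value, at a level where no counting error can be given. The log2 difference, KO minus WT, was −0.63 (SE 0.43, adjusted p = 0.452 in limma). No sequencing batch is given in the labels.

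Promoter sequence is shown for 3 of the 6 genes that separated WT 1 and WT 2 by more than 100-fold from the other libraries and for Gal3st1, which ranked 18th of the 19 by that separation, because the 19 genes differed together between libraries. RefSeq's promoter table (GRCm38.p6) held 13 of the 19 genes, with 17 gene starts in all. The bases before the start are given 5′ to 3′ on the strand of the gene, up to the first annotated exon, and capitals mark matches on either strand to ACAAAG, a core of sites bound by SOX factors, or to CTGGCAC, a core of sites bound by MYRF.
Opalin (chr19:41077114-41077363, minus strand): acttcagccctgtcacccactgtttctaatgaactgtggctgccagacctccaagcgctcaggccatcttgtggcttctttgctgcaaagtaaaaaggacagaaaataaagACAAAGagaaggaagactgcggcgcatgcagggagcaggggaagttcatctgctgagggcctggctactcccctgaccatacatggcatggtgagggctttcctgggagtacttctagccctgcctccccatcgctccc
Mobp (chr9:120149492-120149706, plus strand): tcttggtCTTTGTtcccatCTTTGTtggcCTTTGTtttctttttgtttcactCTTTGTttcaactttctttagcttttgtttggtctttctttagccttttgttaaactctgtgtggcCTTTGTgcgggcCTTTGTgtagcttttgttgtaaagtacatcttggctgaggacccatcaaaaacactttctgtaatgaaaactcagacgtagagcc
Mag (chr7:30914923-30915172, minus strand): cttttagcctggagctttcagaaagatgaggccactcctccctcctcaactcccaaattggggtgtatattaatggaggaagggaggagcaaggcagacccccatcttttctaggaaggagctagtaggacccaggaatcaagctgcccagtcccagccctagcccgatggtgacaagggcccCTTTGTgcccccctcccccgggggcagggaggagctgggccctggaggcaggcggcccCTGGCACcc
Gal3st1 (chr11:3983386-3983635, plus strand): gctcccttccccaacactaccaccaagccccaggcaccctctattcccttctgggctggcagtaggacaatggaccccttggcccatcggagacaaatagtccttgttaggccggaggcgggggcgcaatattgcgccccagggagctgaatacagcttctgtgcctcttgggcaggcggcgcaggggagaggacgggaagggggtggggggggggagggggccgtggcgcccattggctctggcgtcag
The Mobp window held 6 matches to ACAAAG, all on the opposite strand, and the Opalin window 1, starting 139 bases before the start. The Mag window held 1 match to ACAAAG and 1 to CTGGCAC, starting 67 and 9 bases before the start. The Gal3st1 window held no match to any of the 6 motifs searched. Neither did the windows of Mal, Cldn11 and Ermn, not printed here, whose separation was 364-fold, 79.5-fold and 40.7-fold. Apod, which had a match to ACAAAG, was separated 5.79-fold, and a link of matches to separation was not tested. ACAAAG was found in the 250 bases before a start of 4 of the 13 genes (Apod, Mag, Mobp and Opalin). By start, 5 of the 17 held it, against 16.5% of 32851 promoters in the table. CTGGCAC was found for Mag alone among the 13 genes, at 2 of the 17 starts, against 4.19% of all promoters. The other 4 motifs were AACAAT, also bound by SOX factors, with 0 of the 13 genes against 9.42% of promoters, the E-box CAGCTG, with Ninj2 against 13.0%, the GC box GGGCGG, with Gltp, Qdpr and Tmem125 against 32.7%, and TATAAA, with 0 against 12.4%. The matches in capitals do not overlap one another. These matches are a description of letters and not evidence of binding.

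Structural proteins of the sheath included Opalin and Mobp, with the widest separation of the list, but Mal and Fa2h of other groups separated more widely than Mag. Mbp encodes myelin basic protein, which holds the inner faces of the compacted membrane together. It was at 37.2, 36.2, 34.4 and 36.3 TPM in KO 1 to KO 4, against 11153, 13566, 51.3 and 35.3 TPM in WT 1 to WT 4. WT 1 and WT 2 were told apart by Mbp, with levels above 1000 TPM, so its gap to the other libraries is a description and supports nothing. The Mbp gene also gives rise to golli transcripts, made in neurons and immune cells, which a value per gene does not separate. Mbp was the 3rd most abundant of all 23116 genes in WT 1 and in WT 2, and ranked between 4752 and 6561 in the other 6 libraries.

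Mobp, an abundant cytoplasmic protein of compact myelin, was at 0.55, 1.01, 0.56 and 0.27 TPM in KO 1 to KO 4, against 1072, 1368, 0.28 and 0.12 TPM in WT 1 to WT 4. The lower of WT 1 and WT 2 lay 1061-fold above the highest of the other 6 libraries. Opalin, a membrane glycoprotein found in oligodendrocytes of mammals, was listed at 0 in KO 1 to KO 4, against 103, 135, 0 and 0 TPM in WT 1 to WT 4. It was the only one of the 19 genes listed at 0 in all 6 libraries outside WT 1 and WT 2. Mag, a sialic acid-binding adhesion molecule of the membrane layer next to the axon, was at 6.99, 6.66, 3.90 and 8.83 TPM in KO 1 to KO 4, against 949, 1273, 5.73 and 4.95 TPM in WT 1 to WT 4. Its levels in WT 3 and WT 4 were inside the KO range.

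Cldn11, the claudin that forms the tight junctions between myelin layers, was at 13.5, 15.7, 5.67 and 11.9 TPM in KO 1 to KO 4, against 1247, 1709, 11.2 and 3.89 TPM in WT 1 to WT 4. It was the second most abundant of the 19 genes in WT 1 and WT 2. Ermn, which encodes ermin, an actin-binding protein of the outer cytoplasmic rim, was at 3.85, 1.86, 1.61 and 1.31 TPM in KO 1 to KO 4, against 157, 186, 1.96 and 2.40 TPM in WT 1 to WT 4. The gene overlaps Galnt5 on the opposite strand, and whether reads were counted by strand is not stated. The groups overlapped for all 6 structural genes, with WT 3 or WT 4 or both no higher than the highest KO library.

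**Figure D1:**
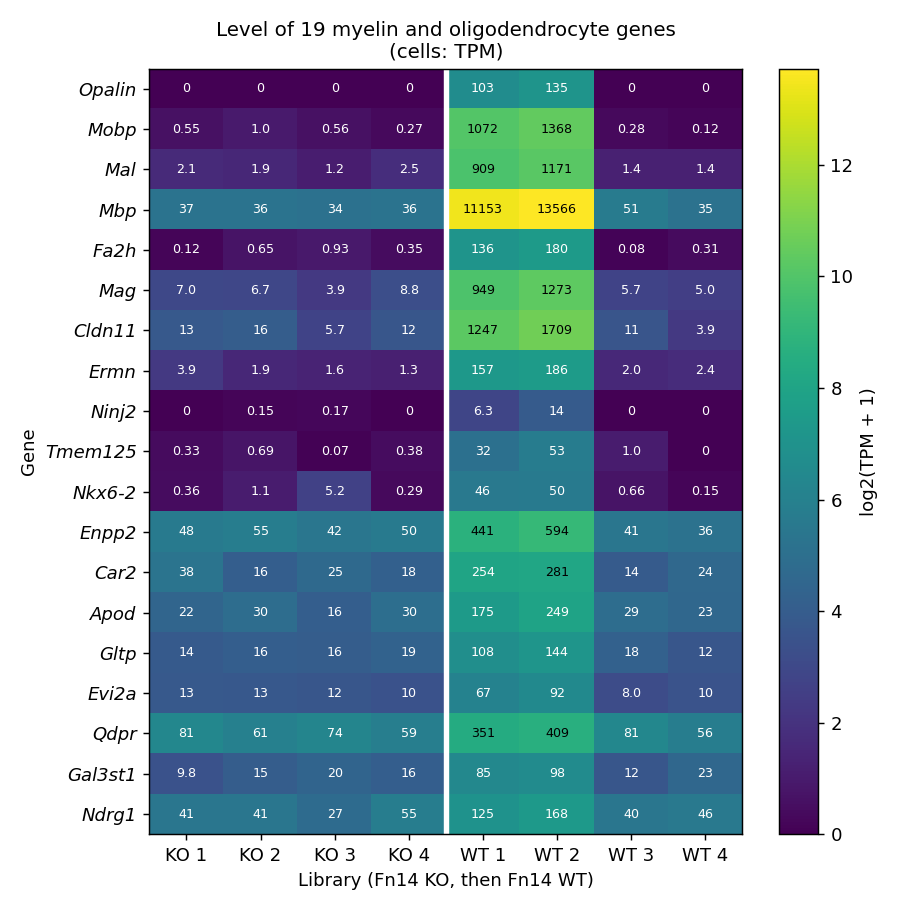
Level of the 19 genes in each library, as log2(TPM + 1) in colour and TPM in the cells. Rows run from the widest to the narrowest gap between WT 1 and WT 2 and the other libraries, and columns give KO 1 to KO 4 left of WT 1 to WT 4. The columns of WT 1 and WT 2 are the brightest in every row, from Opalin, at 103 and 135 TPM there and listed at 0 elsewhere, to Ndrg1, at 125 and 168 TPM there.

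Small membrane proteins of myelin ranged from a gap as wide as that of the structural proteins to one of a few-fold. Mal, a lipid-raft protein of compact myelin, was at 2.14, 1.88, 1.18 and 2.50 TPM in KO 1 to KO 4, against 909, 1171, 1.44 and 1.37 TPM in WT 1 to WT 4. Tmem125, a transmembrane protein enriched in oligodendrocytes, was at 0.33, 0.69, 0.07 and 0.38 TPM in KO 1 to KO 4, against 32.3, 53.0, 1.03 and 0 TPM in WT 1 to WT 4. Ninj2, an adhesion molecule first described in nerve injury, was at 0, 0.15, 0.17 and 0 TPM in KO 1 to KO 4, against 6.33, 14.3, 0 and 0 TPM in WT 1 to WT 4, and had the lowest level of the 19 genes in WT 1 and WT 2. Evi2a, a membrane protein whose gene overlaps Nf1 on the opposite strand and Evi2 on its own strand, was above 7 TPM in every library. It was at 13.2, 12.5, 11.95 and 10.1 TPM in KO 1 to KO 4, against 67.3, 92.0, 7.97 and 10.3 TPM in WT 1 to WT 4, so WT 1 lay 5.11-fold above the highest of the other 6 libraries.

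Genes of myelin lipids differed widely in the size of the gap. Fa2h, the fatty acid 2-hydroxylase that makes the hydroxylated galactolipids of myelin, was at 0.12, 0.65, 0.93 and 0.35 TPM in KO 1 to KO 4, against 136, 180, 0.08 and 0.31 TPM in WT 1 to WT 4. Gal3st1, the sulfotransferase that converts galactosylceramide to sulfatide, was at 9.81, 15.3, 20.3 and 16.3 TPM in KO 1 to KO 4, against 85.4, 98.2, 11.9 and 22.6 TPM in WT 1 to WT 4. Gltp, a glycolipid transfer protein, was at 13.9, 16.1, 15.7 and 18.7 TPM in KO 1 to KO 4, against 108, 144, 18.3 and 11.7 TPM in WT 1 to WT 4. WT 1 and WT 2 were highest for all 3, but the lower of them exceeded the highest of the other 6 libraries 147-fold for Fa2h, 5.77-fold for Gltp and 3.78-fold for Gal3st1.

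Enzymes and carriers were above 14 TPM in every library. Qdpr, dihydropteridine reductase, which regenerates tetrahydrobiopterin and is not limited to oligodendrocytes, was at 81.2, 61.0, 74.4 and 58.7 TPM in KO 1 to KO 4, against 351, 409, 80.8 and 56.2 TPM in WT 1 to WT 4. It ranked first among the 19 genes in each KO library and in WT 3 and WT 4. Car2, carbonic anhydrase 2, which is also made by choroid plexus, was at 37.6, 16.3, 24.6 and 17.6 TPM in KO 1 to KO 4, against 254, 281, 14.1 and 23.6 TPM in WT 1 to WT 4. KO 1, its highest library outside WT 1 and WT 2, also had the highest choroid plexus markers, which summed to 488 TPM in KO 1 and to between 29.5 and 174 TPM in the other 7 libraries, and their part in the value was not tested. Apod, apolipoprotein D, a lipid carrier also made by fibroblasts and pericytes, was at 21.5, 29.5, 16.3 and 30.2 TPM in KO 1 to KO 4, against 175, 249, 29.3 and 22.7 TPM in WT 1 to WT 4.

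The remaining 3 genes each stand for another role. Enpp2, which encodes autotaxin, a secreted enzyme that makes lysophosphatidic acid in oligodendrocytes and choroid plexus, was at 48.5, 55.4, 41.6 and 50.03 TPM in KO 1 to KO 4, against 441, 594, 40.7 and 35.7 TPM in WT 1 to WT 4. Ndrg1, a cytoplasmic protein linked to stress and to myelin maintenance, was at 40.8, 41.3, 26.9 and 54.6 TPM in KO 1 to KO 4, against 125, 168, 40.2 and 46.2 TPM in WT 1 to WT 4. Its gap of 2.29-fold between the lower of WT 1 and WT 2 and the highest of the other 6 was the smallest of the 19 genes. Nkx6-2, a homeodomain transcription factor of maturing oligodendrocytes whose gene overlaps Inpp5a on the opposite strand, was at 0.36, 1.09, 5.23 and 0.29 TPM in KO 1 to KO 4, against 45.8, 49.9, 0.66 and 0.15 TPM in WT 1 to WT 4. KO 3 stood above the other 5 libraries that were low for this gene.

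In a bulk sample, fewer oligodendrocytes and less RNA per oligodendrocyte cannot be told apart. All 19 genes were higher in WT 1 and in WT 2 than in each of the other 6 libraries, a pattern shown by 3590 of 15967 tested genes, or 22.5%. The lower of WT 1 and WT 2 exceeded the highest of the other 6 by more than 2-fold for 19 of the 19 genes against 5.31% of the table, and by more than 5-fold for 16 against 0.946%. It did so by more than 10-fold for 10 of the 19 genes against 0.282% of the table, and by more than 50-fold for 7 against 0.113%. It did so by more than 100-fold for 6 of the 19 (Opalin, Mobp, Mal, Mbp, Fa2h and Mag) and for 12 genes, or 0.0752%, of the table. These shares have no test, since the libraries were told apart by Mbp, a gene of the list. Opalin, Mobp, Fa2h, Ninj2 and Tmem125, all above 10-fold, averaged below 1 TPM in the other 6 libraries. They entered the tested genes only through WT 1 and WT 2 and had to differ. Besides these and Mbp, the genes above 10-fold were Mal, Mag, Cldn11 and Ermn, and those above 100-fold Mal and Mag. The 19 genes were also higher in WT 2 than in WT 1 without exception, with a median ratio of 1.32 and a range from 1.09 for Nkx6-2 to 2.25 for Ninj2, while 50.5% of all tested genes were higher in WT 2 and their median ratio was 1.00.

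The order of the genes by level in WT 1 and WT 2 was unlike that in the other libraries. Mbp made up 64.0% and 62.4% of the summed level of the 19 genes in WT 1 and WT 2, followed by Cldn11 and Mobp. In the other 6 libraries Mbp made up between 11.2% and 16.2%, and Qdpr, Enpp2 and Ndrg1 were among the 4 most abundant in each. The sum without Mbp was 294, 277, 251 and 282 TPM in KO 1 to KO 4, against 6263, 8174, 266 and 242 TPM in WT 1 to WT 4. All 19 genes were at 1 TPM or more in WT 1 and WT 2, and between 13 and 15 were in each of the other 6 libraries.

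The comparison of KO with WT asks which transcripts of the dLGN depend on Fn14, and no myelin gene passed its test. It was made by limma, which fits each gene and shares information on its variance across genes, on log2(TPM + 1) over the 15967 genes whose mean reached 1 TPM, at an adjusted p under 0.05, where the pseudocount of 1 TPM understates the differences of genes of low level. All 19 genes entered the test. For 5 of them (Fa2h, Mobp, Ninj2, Opalin and Tmem125) the mean of the 4 KO libraries with WT 3 and WT 4 was below 1 TPM, so these entered only through WT 1 and WT 2 and had to differ. Of the 19 genes, 0 were called lower and 0 higher in KO, against 0% called lower and 0% called higher over all genes. At an unadjusted p under 0.05, limma gave 0 of the 19 in either direction, against 2.33% lower and 5.33% higher over all genes. The adjusted p of the 19 genes ran from 0.429 to 0.459. The 4 KO values lay apart from the 4 WT values for 0 of the 19 genes, against 0.921% of all genes with KO lower and 2.42% with KO higher.

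All 19 log2 differences, KO minus WT, lay below 0, against 39.9% of all tested genes, with a median of −1.91 against 0.10 over all genes. This count and median are a description, since they include Mbp, by which WT 1 and WT 2 were told apart, and the 5 genes that had to differ. The other 13 genes had a median of −1.60, all below 0, and with WT 1 and WT 2 left out a median of 0.22, with 4 of the 13 below 0. The differences ran from −4.60 (SE 2.46) for Mobp to −0.98 (SE 0.47) for Ndrg1. The structural genes had a median of −3.47, or 0.11 with WT 1 and WT 2 left out, and the small membrane proteins one of −2.06, or 0.18. The enzymes and carriers had a median of −1.60, or 0.016 with WT 1 and WT 2 left out, and the lipid genes one of −1.38, or 0.12. The 3 genes with the smallest p were Mbp at −4.31 (SE 2.00), Apod at −1.60 (SE 0.76) and Gal3st1 at −1.33 (SE 0.64), none of which passed in limma (adjusted p = 0.429 for each). The SE of Mobp, Mal and Mbp exceeded 2 log2 units, as their WT values lay at 2 distant levels. Mbp averaged 36.0 ± 1.18 TPM in KO and 6202 ± 7179 TPM in WT (SD, n = 4 each), so the SD in WT was above the mean.

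Without both WT 1 and WT 2, the 4 KO libraries were set against WT 3 and WT 4 alone, and the differences lay around 0. Of the 19 genes, 12 lay above 0, 6 below 0 and Opalin at 0, against 50.7% of all genes below 0, and the median was 0.12. Limma called 0 of the 19 in either direction, against 0.0125% of all genes called lower and 0% called higher, with an adjusted p of 0.9997 or more for each. Enpp2 was higher in each KO library, from 41.6 to 55.4 TPM, than in WT 3 and WT 4, at 40.7 and 35.7 TPM, with a log2 difference of 0.34 (SE 0.14). These groups did not overlap for 1 of the 19 genes with KO higher, Enpp2, and for 0 with KO lower, against 4.57% and 4.73% of all genes, so the count was close to that of the table. At an unadjusted p under 0.05, limma gave Enpp2 alone, against 1.03% of all genes higher and 1.11% lower, and it did not pass after adjustment (adjusted p = 0.9997 in limma). The largest differences were 0.66 (SE 0.66) for Nkx6-2, whose highest value was in KO 3, and 0.64 (SE 0.48) for Cldn11, and Mbp stood at −0.24 (SE 0.16). With a weight estimated for each library, limma called all 19 genes lower, with adjusted p from 1.48e-04 to 2.67e-04, but it then gave WT 3 and WT 4 weights of 0.13 and 0.138 and called 6569 genes higher and 3807 lower in the whole table.

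**Figure D2:**
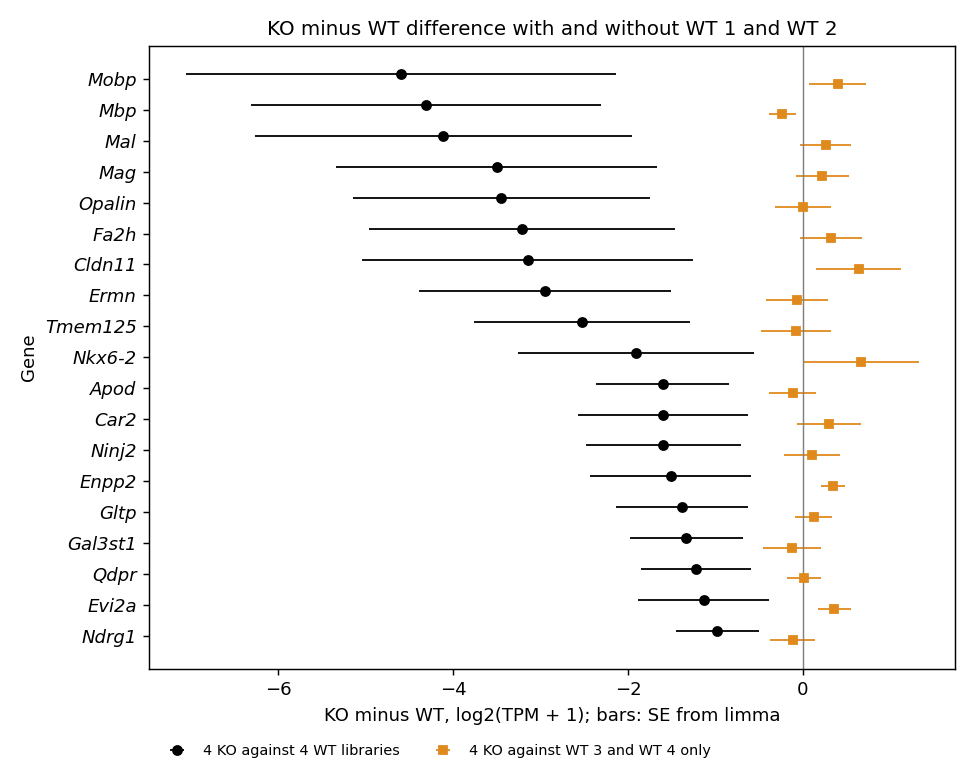
KO minus WT difference of each gene on the log2(TPM + 1) scale, with bars for the SE from limma. Circles set 4 KO against 4 WT libraries and run from −4.60 for Mobp to −0.98 for Ndrg1, and squares set the 4 KO libraries against WT 3 and WT 4 only and run from −0.24 for Mbp to 0.66 for Nkx6-2.

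Among the other 6 libraries, no single library was high or low for the whole list. KO 4 was the highest for 5 genes, KO 1 for 4, KO 2 and KO 3 for 3 each, WT 3 for 2 and WT 4 for 1, and Opalin was listed at 0 in all 6. WT 4 was the lowest for 7 genes and KO 3 for 5. The most even genes were Qdpr, with a highest value 1.44-fold above the lowest, Mbp, with 1.49-fold, and Enpp2, with 1.55-fold. Fa2h and Mobp varied 11.6-fold and 8.42-fold, at levels of 1.01 TPM or less where the depth behind a value is unknown. Nkx6-2 varied 34.9-fold through its value of 5.23 TPM in KO 3. That library also had the highest summed level of precursor markers, 1039 TPM against 650 to 836 TPM in the other 5. The markers were mixed there, with Ptprz1 highest of the 6 libraries at 424 TPM. Vcan, chosen after its values were seen, was lowest in KO 3 at 58.0 TPM. A link of these markers to Nkx6-2 was not tested.

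**Figure D3:**
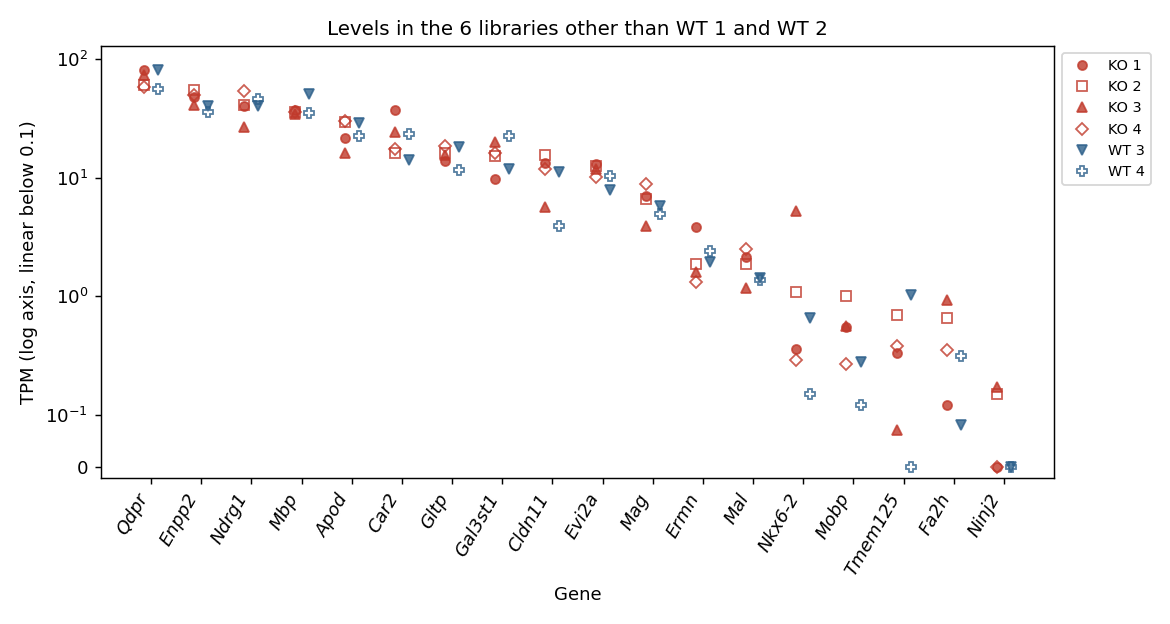
TPM of 18 genes in the 4 KO libraries and in WT 3 and WT 4, on a log axis that is linear below 0.1 TPM. KO libraries are red and left of WT 3 and WT 4 in blue, and genes are ordered by their median. The colours mix at nearly every gene, Mbp sits between 34.4 and 51.3 TPM, and the triangle of KO 3 stands alone above the others for Nkx6-2 at 5.23 TPM. Opalin, listed at 0 in all 6, is left out.

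Other genes of mature oligodendrocytes and myelin were taken from a list of 37, of which 25 were analysed here and tested. None passed, with 21 below and 4 above 0, a median of −1.19 on the log2 scale (−0.09 with WT 1 and WT 2 left out), and 18 of 25 highest in WT 1 and WT 2, against 22.5% of all genes. The smallest p belonged to Tppp3, a tubulin-binding protein that is also made by other cells, at 78.9, 104, 84.9 and 96.0 TPM in KO 1 to KO 4, against 105, 146, 178 and 104 TPM in WT 1 to WT 4, with a log2 difference of −0.52 (SE 0.20, −0.58 without both). Unlike the 19 genes, Tppp3 was highest in WT 3. Serpinb1a, a protease inhibitor, had −1.32 (SE 0.56, −0.33 without both) and Nfasc, an adhesion protein of nodes and paranodes made by neurons and glia, −1.19 (SE 0.54, −0.11 without both).

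Transcriptional regulators of the lineage were taken from a list of their own. Of 25 listed, 23 were tested and none passed, with 14 positive and 9 negative differences and a median of 0.19, or 0.07 with WT 1 and WT 2 left out. Of the 23, 6 were highest and 9 lowest in WT 1 and WT 2, shares close to the 22.5% and 40.5% of all tested genes. The smallest p belonged to the chromatin remodeller Chd7 at 0.49 (SE 0.20, 0.43 without both), the precursor factor Sox6 at 0.45 (SE 0.19, 0.51) and Tmem98, a membrane protein that binds MYRF, at −1.07 (SE 0.47, −0.19). Sox10 and Olig2 are added here with their values already known. Sox10, which activates myelin genes throughout the lineage, was at 6.52, 10.7, 16.4 and 10.3 TPM in KO 1 to KO 4, against 80.1, 105, 10 and 9.81 TPM in WT 1 to WT 4. Olig2, which is present from precursors onward, was at 27.4, 37.4, 46.2 and 47.4 TPM in KO 1 to KO 4, against 86.4, 85.3, 45.3 and 29.4 TPM in WT 1 to WT 4. The lower of WT 1 and WT 2 lay 4.89-fold above the highest of the other 6 for Sox10 and 1.80-fold for Olig2, both less than the gap of Mbp, a difference that was not tested.

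Lipid synthesis genes that myelin shares with other tissues were split. Of 19 listed, 17 were tested, 7 above and 10 below 0, with a median of −0.12, or −0.03 with WT 1 and WT 2 left out, and none passed. Degs1 and Elovl5, which act on sphingolipids and on long fatty acids, had −0.93 (SE 0.39, −0.19 without both) and −0.52 (SE 0.22, −0.18). Fasn, the fatty acid synthase, went the other way at 0.56 (SE 0.24, 0.17), with 390, 371, 346 and 459 TPM in KO 1 to KO 4, against 189, 217, 303 and 393 TPM in WT 1 to WT 4. Fasn was lowest in WT 1 and WT 2, where Mbp and Mobp were highest. Of the 17 genes, 10 were highest and 6, Fasn among them, lowest in WT 1 and WT 2. Over all tested genes the shares were 22.5% and 40.5%.

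Markers of other cells also differed between these libraries, and their part in the levels of the 19 genes was not tested. Of 12 precursor markers, which summed to 650 to 1039 TPM in KO and 619 to 817 TPM in WT, 3 were highest and 3 lowest in WT 1 and WT 2, against 22.5% and 40.5% of all genes. Ptprz1, which had their highest mean and the highest level in 7 of 8 libraries, was at 186 to 424 TPM in KO and 156 to 331 TPM in WT. Of 10 markers of newly formed oligodendrocytes analysed, 5 were highest in WT 1 and WT 2, against 22.5% of all genes. Their sum was 995 to 1540 TPM in KO and 502 to 1525 TPM in WT. Tcf7l2, which thalamic neurons also express, was the highest of them in 5 of 8 libraries. It ran from 529 to 1005 TPM in KO, against 250, 253, 43.4 and 1074 TPM in WT 1 to WT 4, so WT 3 and WT 4 were far apart. Schwann cell markers, which would mark peripheral myelin, summed to 55.4 to 70.6 TPM in KO and 51.3 to 70.1 TPM in WT over 8 genes, and Drp2 was the highest of them in 6 of 8 libraries.

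Markers of young neurons ran opposite to the 19 genes. All 12 were lowest in WT 1 and WT 2, against 40.5% of all genes, and they summed to 14178, 14388, 12905 and 14831 TPM in KO 1 to KO 4, against 1740, 1753, 11377 and 14657 TPM in WT 1 to WT 4, with Tubb2b the highest in 6 of 8 libraries. Of 10 mature neuron markers analysed, 9 were highest in WT 1 and WT 2, against 22.5% of all genes. Their sums were 1076 to 1849 TPM in KO, against 5566, 4898, 876 and 1411 TPM in WT 1 to WT 4. Snap25 had the highest mean of them but was the highest in 3 of 8 libraries. Nefl, chosen after its values were seen, exceeded it in KO 1 to KO 4 and in WT 4. Of 8 astrocyte markers analysed, 5 were highest in WT 1 and WT 2, against the same 22.5%. They summed to 471 to 797 TPM in KO and 498 to 2925 TPM in WT. Slc1a2, with their highest mean, was the highest in 4 of 8 libraries. Of 11 microglia markers, 9 were highest in WT 1 and WT 2, again against 22.5%, with sums of 154 to 160 TPM in KO and 157 to 386 TPM in WT. Choroid plexus markers summed to 71.9 to 488 TPM in KO and 29.5 to 145 TPM in WT, and Ttr, with the highest mean, was the highest in 4 of 8 libraries. Markers of meninges and fibroblasts summed to 171 to 889 TPM in KO and 103 to 475 TPM in WT, and Igf2, with the highest mean, was the highest in 4 of 8 libraries. Those of endothelial cells and pericytes summed to 276 to 362 TPM in KO and 267 to 310 TPM in WT, with Cldn5 the highest in 6 of 8 libraries. No marker of these lists was listed at 0 in all 8 libraries.

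**Figure D4:**
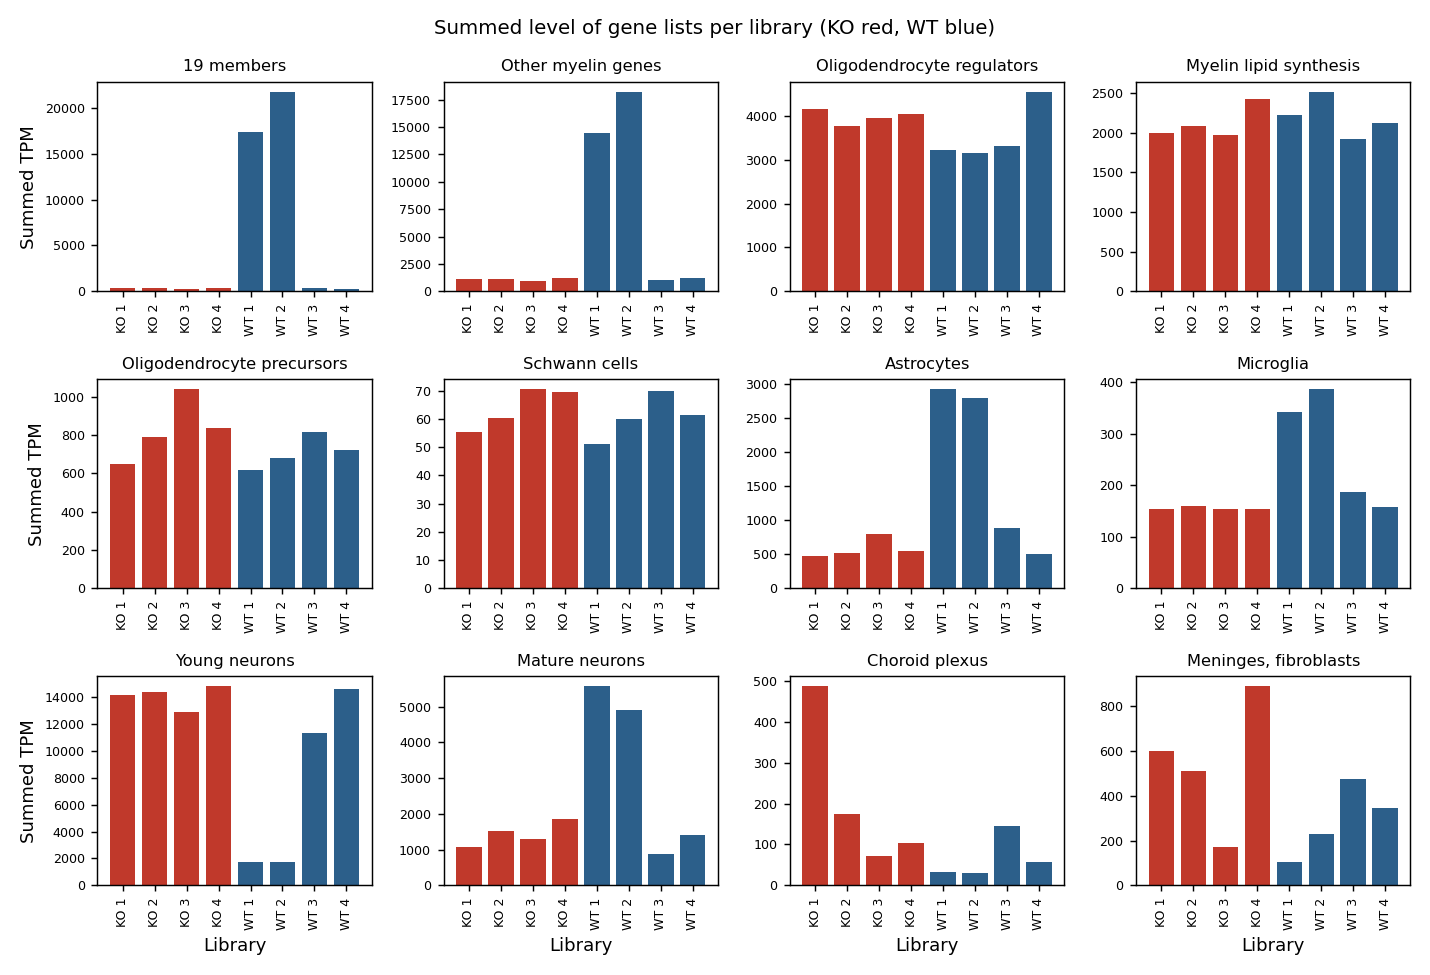
Summed TPM of 12 gene lists in each library, with KO 1 to KO 4 in red left of WT 1 to WT 4 in blue, and 1 vertical scale per panel. The 19 genes and the other myelin genes stand up only in WT 1 and WT 2, at 17416 and 21741 TPM and at 14467 and 18186 TPM, while the young neuron markers are lowest there, at 1740 and 1753 TPM.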

How the data were processed

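Total RNA of microdissected dLGN was depleted of ribosomal RNA, fragmented and sequenced on an Illumina NextSeq instrument, 1 mouse per library, per the labels' protocols. The authors deposited TPM per gene and library. The tools behind them were BWA and edgeR 3.14.0 and the builds mm10 and GRCm38, per the submitters' processing notes, which give no settings, annotation or strand rule here. The TPM analysed here summed to 969537 and 968958 in WT 1 and WT 2 and to 996566 to 997426 in the other 6 libraries. Whole reads could not be recovered, so depth is unknown and no counting interval is given. No 2 libraries held the same values.

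Limma 3.58.1 in R 4.3.3 compared KO with WT (mean-variance trend, robust estimation, two-sided, no covariate, Benjamini-Hochberg adjustment over the 15967 genes whose mean reached 1 TPM) on log2(TPM + 1), and the fit was tested on simulated data. Same-numbered KO and WT libraries did not deviate together, so no pairing was used. WT 1 and WT 2 were told apart by Mbp above 1000 TPM and were not tested against the rest. The genes, lists and alternatives were chosen with earlier results of these data known. Named are all 19 genes, the 3 of smallest p in each pathway list and the marker of highest mean in each cell type list, except that some genes are not reported here; any other gene is marked as chosen after its values were seen. Positions came from GENCODE M21 and promoters from RefSeq (GRCm38.p6). Python 3.11.15, pandas 2.3.3, numpy 2.4.6 and matplotlib 3.10.9 were used.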

Additional observations from a re-analysis of the deposited data

Results flagged for a closer look

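Nkx6-2 was at 5.23 TPM in KO 3, against 0.36, 1.09 and 0.29 TPM in KO 1, KO 2 and KO 4, so that the gap from KO 3 to the nearest KO library took up 0.838 of the range of the group, above Dixon's 95% critical value for 4 samples. Chance marks about 1 in 20 groups, and 1 of the 39 groups examined was marked. In the WT groups WT 1 and WT 2 lay far above WT 3 and WT 4, so a single outlier could hardly be marked there. The rate of 1 in 20 therefore does not apply to all 39. The gene overlaps Inpp5a on the opposite strand.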

How the results depend on the processing

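Of 20 alternatives, only array weights passed any of the 19 genes, and only leaving out both WT 1 and WT 2 changed a direction. With array weights 6569 genes were called higher and 3807 lower, 19 of the 19 genes were lower, and their median log2 difference was −4.30. Without both WT 1 and WT 2 the median turned to 0.12, 2 genes of the table were called lower, 1 of the 19 was higher in KO without overlap (4.57% of all genes), and 12 genes turned above 0: Mag at 0.22, Mobp at 0.40, Cldn11 at 0.64, Mal at 0.26, Evi2a at 0.36, Ninj2 at 0.11, Fa2h at 0.32, Gltp at 0.12, Car2 at 0.30, Qdpr at 0.016, Enpp2 at 0.34 and Nkx6-2 at 0.66. The cause was not tested. Without trend and robust estimation 1 gene of the table was called higher. Leaving out 1 library at a time gave 0 to 1 gene of the table called lower (1 without KO 3), 0 to 2 of the 19 lower without overlap (Ermn without KO 1, against 1.83% of all genes, Gal3st1 without WT 3, against 2.70%, and Mbp and Tmem125 without WT 4, against 7.51%), and a median from −2.85 without WT 4 to −1.20 without WT 1. At an unadjusted p under 0.05, 16 of the 19 were lower without WT 3, against 7.61% of all genes lower and 19.2% higher, and 15 without WT 4, against 11% and 16%, and none of the 19 passed after adjustment. Quantile normalization shifted the median of all genes to 0.00 from 0.10, and all 19 genes stayed below 0 under each scaling tried. With the replicate block, 0 genes were called in either direction and the median of the 19 was −1.91; same-numbered libraries correlated at −0.1 to 0.074 in their deviations from the group means. Depth is unknown, so values under about 1 TPM cannot be given a counting error. A minimum mean of 5 TPM left 18 of the 19 genes.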

Other observations

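The genes of this section, in this paragraph and the next, were chosen after their values were seen. Of 18 genes in the table for which the lower of WT 1 and WT 2 exceeded the highest of the other 6 libraries by more than 50-fold, 7 belong to the 19 myelin genes. Of the 11 others, Klk6, Enpp6 and Neu4 are described for their known roles in the oligodendrocyte lineage. Genes outside that lineage were also among them, and Gabrd, a GABA receptor subunit of neurons, was at 2.95, 0.50, 1.25 and 0.37 TPM in KO 1 to KO 4, against 328, 256, 0.23 and 0 TPM in WT 1 to WT 4. Klk6, a secreted protease of oligodendrocytes, was at 0, 0.10, 0 and 0 TPM in KO 1 to KO 4, against 22.0, 24.9, 0 and 0 TPM in WT 1 to WT 4. Enpp6, a choline phosphodiesterase that marks newly formed oligodendrocytes, was at 0.70, 0.42, 0.62 and 0 TPM in KO 1 to KO 4, against 50.9, 60.3, 0.07 and 0.43 TPM in WT 1 to WT 4. Neu4, a sialidase on the list of precursor markers used above, was at 0.10, 0.14, 0.18 and 0.09 TPM in KO 1 to KO 4, against 19.98, 27.4, 0.32 and 0.06 TPM in WT 1 to WT 4. Pdgfra, the growth factor receptor that defines precursors, was at 40.1, 50.1, 76.4 and 58.7 TPM in KO 1 to KO 4, against 43.6, 50.6, 52.0 and 52.6 TPM in WT 1 to WT 4. WT 1 and WT 2 lay inside the range of the other 6 libraries for Pdgfra. The 12 precursor markers were mixed: Neu4, Gpr17 and Matn4 were highest in WT 1 and WT 2, and Vcan, Ptprz1 and Cspg5 were lowest there.

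Mir219-2, which RefSeq names Mir219a-2 and which encodes a microRNA that promotes oligodendrocyte differentiation in mice, was, like Opalin, listed at 0 outside WT 1 and WT 2. KO 1 to KO 4 had no TPM for it, against 21, 2.90, 0 and 0 TPM in WT 1 to WT 4. It was thus listed higher in WT 1, while Opalin was higher in WT 2. Depth is unknown, so no counting error can be given for Mir219-2. Its mature product, with the seed in capitals, is given by RefSeq at chr2:29845689-29845709 on the minus strand (GRCm38.p6).
mmu-miR-219a-5p: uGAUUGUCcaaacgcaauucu
The hairpin is 97 bases long, and the value per gene does not separate the mature form from it. Zfp488, a repressor described in oligodendrocytes, did not follow the myelin genes, at 1758, 1550, 2163 and 1511 TPM in KO 1 to KO 4, against 1497, 1262, 1979 and 2084 TPM in WT 1 to WT 4. Its level was far above that of Sox10 in every library, at 6.52 to 16.4 TPM in KO and 9.81 to 105 TPM in WT. Whether all reads counted for Zfp488 came from that gene was not checked, so its level is uncertain.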
